A study of Homo sapiens with 2 samples.

Results

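AKR1C1, AKR1C2 and AKR1C3 and 7 further targets of the transcription factor NRF2 (NQO1, GCLC, GCLM, TXNRD1, SRXN1, HMOX1 and SLC7A11) were compared between 2 RNA libraries of K562, an established leukemia line that expresses erythroid genes. The 10 genes were taken by symbol from the 62700 genes of the deposited table, and were selected on their counts in these same libraries, so every ratio below is a description. One library came from cells with a guide RNA against SMC1A, which encodes part of the ring-shaped cohesin complex, and the other from cells with a control guide. Both carried dCas9-KRAB, a Cas9 that binds without cutting and, through its KRAB domain, represses the promoter a guide points to. The labels name both WT with the genotype E50 dCas9-KRAB, without explaining E50 or saying whether the cells were 1 clone. In both, guides came by lentivirus with a blue fluorescent marker, cells were under 1 µg/ml puromycin from day 2 to day 6, and cells with high marker signal were sorted before poly(A) RNA was sequenced. Each guide has a single library, so no test between guides can be made, and the 95% intervals given here cover counting error only.

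NRF2 is normally held in the cytoplasm and degraded through KEAP1, an adaptor of the CUL3 ubiquitin ligase. Oxidants and electrophiles modify KEAP1, and NRF2 then enters the nucleus, pairs with a small MAF protein and binds antioxidant response elements. Its targets make glutathione, recycle thioredoxin, reduce quinones and break down heme. BACH1 binds the same elements as a repressor. The AKR1C genes encode aldo-keto reductases that use NADPH to reduce steroids, prostaglandins and reactive carbonyls, and in many human cell types they are among the strongest NRF2 responders.

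The libraries held 16864207 counts with the SMC1A guide and 18349209 with the control guide. Levels are given as CPM, counts scaled to library size after TMM adjustment, and log2 ratios are SMC1A guide over control guide. SMC1A itself stood at 16.3 CPM with the SMC1A guide and 460.4 CPM with the control guide. The 10 erythroid markers all had at least 100 counts and summed to 13397 CPM with the SMC1A guide and 14561 CPM with the control guide, but single ones differed in both directions. The fetal and embryonic globin genes HBG1, HBG2 and HBZ were at log2 ratios of -1.50, -1.68 and -1.56 and the transferrin receptor gene TFRC at -1.41, while the embryonic globin gene HBE1 was at 0.62. Of 10 markers of other blood cells, 2 passed 100 counts, CD3D at a log2 ratio of 0.34 and LYZ at 0.42. CD3D had 324 counts with the SMC1A guide and 255 with the control guide, and LYZ had 428 and 319. NKG7 had 21 and 2 counts in the same order, while MS4A1 and ELANE were at 0 in both libraries. These 10 markers summed to 46.0 CPM with the SMC1A guide and 34.6 CPM with the control guide. The 4 fibroblast markers summed to 16.3 CPM with the SMC1A guide and 7.75 CPM with the control guide. Of these, 2 passed 100 counts and went opposite ways, the collagen genes COL1A1 at 1.84 and COL1A2 at -0.73. Of the 6 liver and epithelial markers, KRT19 and EPCAM were abundant in both libraries, while ALB had 2 counts with the SMC1A guide and 8 with the control guide, and APOA1 and KRT5 were at 0. These 6 summed to 239.6 CPM with the SMC1A guide and 308.2 CPM with the control guide, and the part of any of these markers in the AKR1C values was not tested. In bulk RNA, fewer cells of a type and less RNA per cell cannot be told apart.

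AKR1C1 and AKR1C2 lay far below their control level in the SMC1A library, and for the sparse AKR1C3 no difference was detectable. Of the other targets NQO1, GCLC, GCLM and SRXN1 lay moderately above their control level. SLC7A11 lay at it and TXNRD1 slightly below by TMM, and HMOX1 has no level. Summed, AKR1C1, AKR1C2 and AKR1C3 stood at 23.5 CPM (414 counts) with the SMC1A guide and 123.2 CPM (2162 counts) with the control guide, 5.25-fold lower. The log2 ratio of this sum was -2.39 (interval -2.55 to -2.24). The other 7 targets summed to 687.8 CPM with the SMC1A guide and 611.3 CPM with the control guide, a log2 ratio of 0.17 (0.13 to 0.21). HMOX1, listed at 0 counts in both libraries, adds nothing to this sum. Of the 10 genes, 8 had the 100 counts used as the filter. Of these 8, 2 were at least 2-fold lower, beside 2.32% of the 11321 genes that passed the filter, and 0 were at least 2-fold higher, beside 5.11%. The same 2 genes had their whole counting interval past 2-fold lower, beside 1.26% of genes, and 0 members had it past 2-fold higher, beside 3.03%. Scaled by library totals instead, 766 genes were at least 2-fold higher and 195 lower, against 579 and 263 with TMM. The members were chosen with this contrast in view, so nothing is read from those shares.

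**Figure D1:**
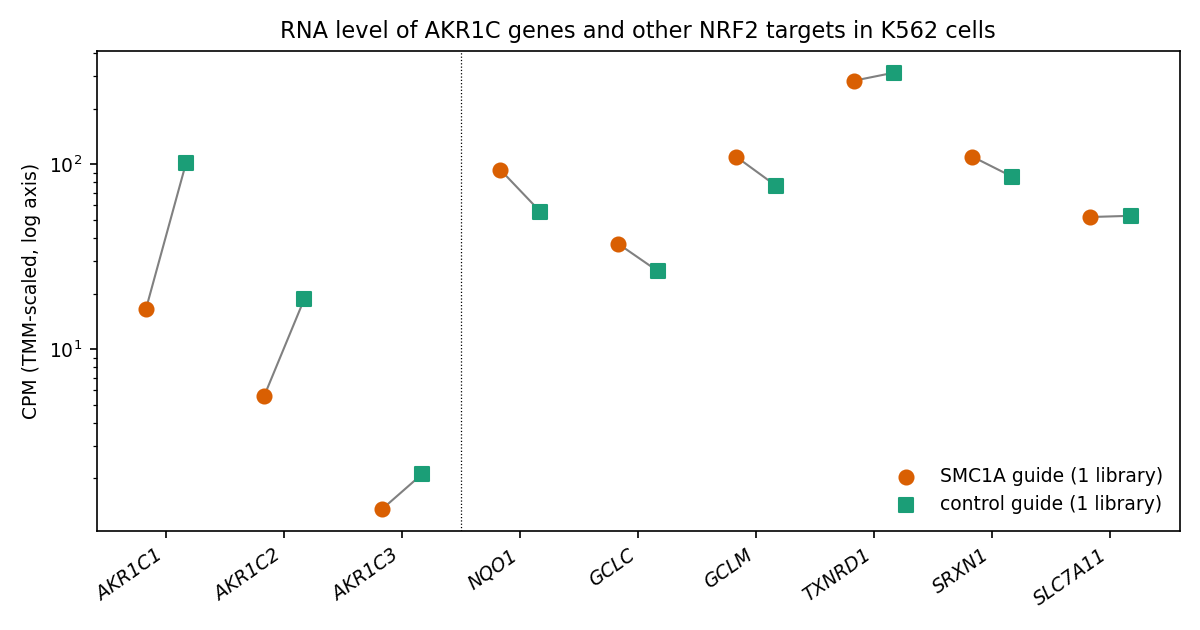
RNA level in CPM (log axis) of the 9 members with counts, with the SMC1A guide (circles) and the control guide (squares), 1 library each. Left of the dotted line, AKR1C1 and AKR1C2 are lower with the SMC1A guide and AKR1C3, at 24 and 37 counts in the SMC1A and control libraries, is not told apart, and NQO1, GCLC, GCLM and SRXN1 are higher.

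AKR1C1 and AKR1C2 sit beside each other on chromosome 10 and are close copies, so their sequences are shown before their separate values. Coding sequences of AKR1C1 and AKR1C2 (GENCODE release 29) were identical at 950 of 969 bases (98.0%), and AKR1C1 and AKR1C3 at 894 of 971 aligned positions (92.1%). Of all 100-base windows of the coding sequence, the read length of these libraries, 20.7% in AKR1C1, 26.4% in AKR1C2 and 9.77% in AKR1C3 occurred letter for letter in another of the AKR1C genes. Reads from such windows can only be divided between the copies by estimation. The stretch of 120 bases with the most differences between AKR1C1 and AKR1C2, coding bases 43 to 162, is printed. It shows where reads of the pair are best told apart. Over the whole coding sequence the pair differs at 19 bases, and the longest identical run, outside this stretch, is 186 bases. Capitals in AKR1C1 mark bases that differ from AKR1C2, and capitals in AKR1C2 and AKR1C3 mark bases that differ from AKR1C1.
AKR1C1: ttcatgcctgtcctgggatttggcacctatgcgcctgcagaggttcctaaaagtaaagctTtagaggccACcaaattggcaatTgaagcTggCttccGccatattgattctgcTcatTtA
AKR1C2: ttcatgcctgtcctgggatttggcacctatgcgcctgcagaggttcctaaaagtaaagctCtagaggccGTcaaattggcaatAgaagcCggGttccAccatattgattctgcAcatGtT
AKR1C3: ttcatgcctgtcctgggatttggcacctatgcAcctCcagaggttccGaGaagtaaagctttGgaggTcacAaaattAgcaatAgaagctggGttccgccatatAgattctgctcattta
The window holds 10 differences between AKR1C1 and AKR1C2 and 11 between AKR1C1 and AKR1C3.

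AKR1C1 (ENSG00000187134.14, chr10:4963253-4983283, + strand, GRCh38) encodes the enzyme that inactivates progesterone. It had 16.6 CPM (292 counts) with the SMC1A guide and 102.5 CPM (1798 counts) with the control guide. That is 6.19-fold lower (counting interval 5.47 to 7.03), a log2 ratio of -2.63. Of the genes that passed the filter, 0.159% had a lower ratio, SMC1A itself among them. AKR1C2 (ENSG00000151632.18, chr10:4987400-5018031, - strand) encodes an enzyme that inactivates the androgen dihydrotestosterone. It had 5.56 CPM (98 counts) with the SMC1A guide and 18.6 CPM (327 counts) with the control guide, 3.35-fold lower (2.67 to 4.25). AKR1C3 (ENSG00000196139.14, chr10:5035354-5107686, + strand), which makes testosterone and prostaglandin F, was the weakest of the trio. Its level was 1.36 CPM (24 counts) with the SMC1A guide and 2.11 CPM (37 counts) with the control guide. With 61 counts in all it did not pass the filter, and its log2 ratio of -0.61 had an interval from -1.44 to 0.15, so no difference was detectable at this depth.

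The make-up of the AKR1C sum differed between the libraries. AKR1C1 took 70.5% of it with the SMC1A guide (exact interval 65.9 to 74.9) and 83.2% with the control guide (81.5 to 84.7). AKR1C2 took 23.7% with the SMC1A guide (19.7 to 28.1) and 15.1% with the control guide (13.6 to 16.7). AKR1C3 took 5.80% with the SMC1A guide (3.75 to 8.50) and 1.71% with the control guide (1.21 to 2.35). The 3 pairs of intervals do not overlap, but they leave out the uncertainty of dividing shared reads, which was not tested. The sum needs no such division among the trio. Of the other rows of the family, AKR1C4, the liver form, had 1 count with the SMC1A guide and 0 with the control guide, AKR1C7P had 2 and 0, AKR1C8 had 1 in each, and AKR1C5P and AKR1C6P had 0 in both.

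Promoters of AKR1C1 and AKR1C2 were compared because both genes were at least 2-fold lower. The 250 bases before each RefSeq start (RefSeq table, GRCh38.p14) were identical at 245 of 246 aligned positions. The windows are chr10:4963165-4963414 (+ strand) for AKR1C1 and chr10:5003858-5004107 (- strand) for AKR1C2. Capitals mark the aligned base that differs.
AKR1C1: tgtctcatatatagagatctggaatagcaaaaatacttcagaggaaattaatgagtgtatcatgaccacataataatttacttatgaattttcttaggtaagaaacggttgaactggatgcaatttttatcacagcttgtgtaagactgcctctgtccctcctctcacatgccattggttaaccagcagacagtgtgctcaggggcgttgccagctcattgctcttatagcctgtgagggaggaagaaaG
AKR1C2: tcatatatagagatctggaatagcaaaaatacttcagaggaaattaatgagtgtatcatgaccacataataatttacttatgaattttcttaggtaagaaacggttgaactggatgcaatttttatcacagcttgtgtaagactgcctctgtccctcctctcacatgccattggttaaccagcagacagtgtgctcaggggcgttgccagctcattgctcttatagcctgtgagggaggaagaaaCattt
AKR1C3 has 2 RefSeq starts in the table, and its promoters were identical to that of AKR1C1 at 74.7% and 73.9% of aligned positions. The one with the higher identity, chr10:5048531-5048780 (+ strand), is shown with capitals at bases that differ from AKR1C1.
AKR1C3: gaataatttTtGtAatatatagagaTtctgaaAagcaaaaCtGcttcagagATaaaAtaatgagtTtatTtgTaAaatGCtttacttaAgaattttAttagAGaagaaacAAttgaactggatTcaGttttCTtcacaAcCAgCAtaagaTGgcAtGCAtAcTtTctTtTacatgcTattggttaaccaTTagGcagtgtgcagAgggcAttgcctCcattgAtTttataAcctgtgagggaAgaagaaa
The promoter of the weakly expressed copy is thus less alike than those of AKR1C1 and AKR1C2 are to each other.

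Among the other targets, NQO1 (ENSG00000181019.13, chr16:69706996-69726951, - strand), which encodes the quinone reductase most often used to read NRF2 activity, had the highest ratio. Its level was 93.8 CPM (1655 counts) with the SMC1A guide and 55.5 CPM (974 counts) with the control guide, 1.69-fold higher (1.56 to 1.83). The glutathione pair came next. GCLC (ENSG00000001084.13, chr6:53497341-53616970, - strand), the catalytic subunit of the enzyme that starts glutathione synthesis, had 37.2 CPM with the SMC1A guide and 26.3 CPM with the control guide, 1.41-fold higher (1.25 to 1.59). GCLM (ENSG00000023909.10, chr1:93885205-93909456, - strand), its modifier subunit, had 110.1 CPM with the SMC1A guide and 76.4 CPM with the control guide, 1.44-fold higher (1.34 to 1.54). The proportion of the subunits was close in the libraries, with 2.96 GCLM counts per GCLC count in the SMC1A library (2.71 to 3.24) and 2.90 in the control library (2.61 to 3.23).

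SLC7A11 (ENSG00000151012.13, chr4:138164097-138242349, - strand), the cystine importer that supplies this pathway, was level. It had 51.9 CPM (916 counts) with the SMC1A guide and 52.7 CPM (925 counts) with the control guide, with a log2 ratio of -0.02 (-0.16 to 0.11) by TMM, 0.11 when libraries were scaled by their totals and 0.071 with the expression trend removed. In the thioredoxin arm, SRXN1 (ENSG00000271303.2, chr20:646615-653370, - strand), which repairs overoxidized peroxiredoxins, had 110.3 CPM with the SMC1A guide and 85.7 CPM with the control guide, 1.29-fold higher (1.20 to 1.38). TXNRD1 (ENSG00000198431.18, chr12:104215779-104350305, + strand), the cytosolic thioredoxin reductase, had 284.5 CPM with the SMC1A guide and 314.6 CPM with the control guide. Its log2 ratio was -0.14 (-0.20 to -0.09) by TMM and -0.02 by library totals. The ratio was 0.14, of opposite sign, once the expression trend had been subtracted. The pseudogene RPL18AP3 inside the TXNRD1 span had 35 counts with the SMC1A guide and 59 with the control guide, and other annotated genes overlapping a member's span had at most 5. HMOX1 (ENSG00000100292.18, chr22:35380361-35394214, + strand), the inducible heme oxygenase, was listed at 0 in both libraries. So were, or nearly so, genes that cells in general use, with GPX1 at 2 counts with the SMC1A guide and 0 with the control guide and CBR1 at 0 in both, and no level or ratio is given for HMOX1.

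**Figure D2:**
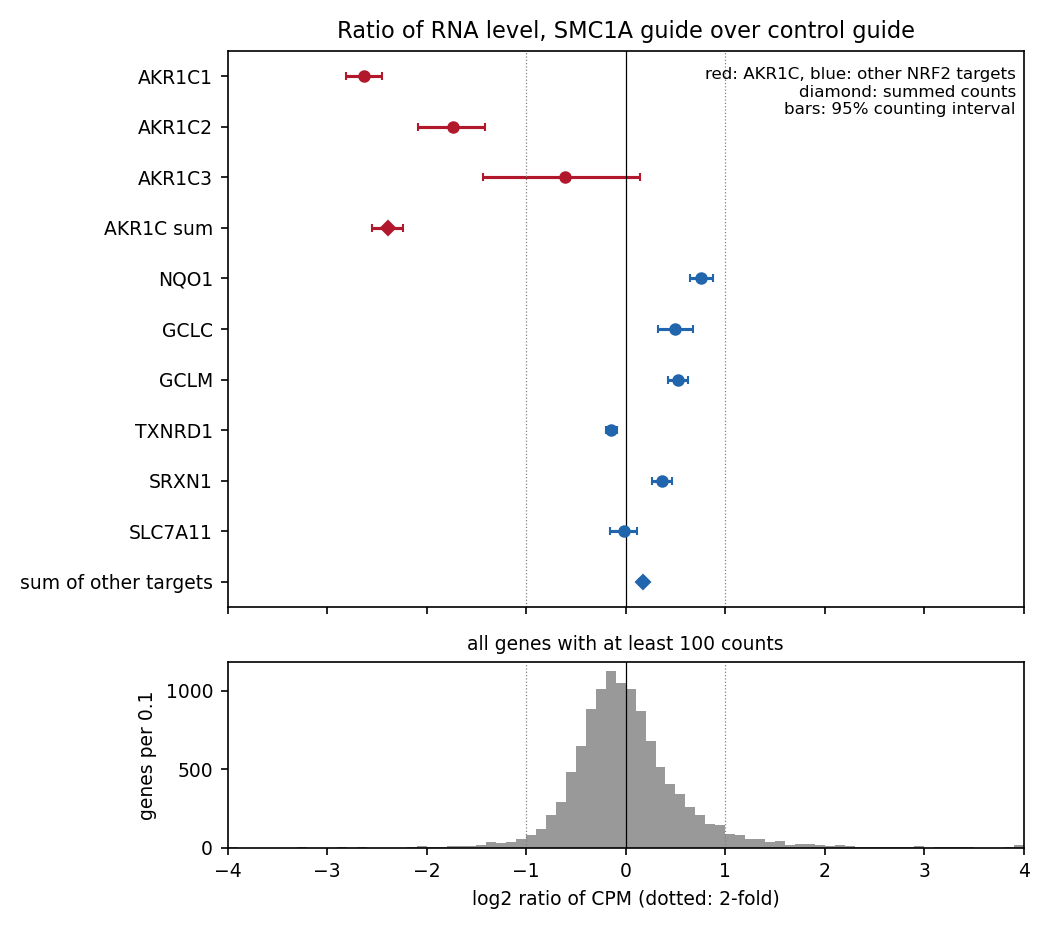
Upper panel, log2 ratio of CPM with the SMC1A guide over the control guide for each member with counts and for the summed counts (diamonds), with 95% counting intervals. Lower panel, the log2 ratios of the 11321 genes with at least 100 counts, values past the axis placed in the outermost bars. AKR1C1, AKR1C2 and the AKR1C sum lie past the dotted 2-fold line, and the other targets lie between -0.14 and 0.76.

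Within a library, the AKR1C sum can be set against the other targets without any scaling. There were 3.41 AKR1C counts per 100 counts of the other 7 targets with the SMC1A guide (exact interval 3.09 to 3.76) and 20.2 with the control guide (19.2 to 21.1), a 5.91-fold lower proportion. HMOX1 adds no counts to those 7. Against single targets, the proportion was lower by 4.75-fold for TXNRD1 and by 8.87-fold for NQO1, with GCLC, GCLM, SRXN1 and SLC7A11 between them. Since the genes were selected on these counts, these proportions describe the choice and support nothing further.

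Levels of different genes were compared per kilobase of merged exon length (GENCODE release 29). With the SMC1A guide the order was TXNRD1 (42.4 CPM per kb), SRXN1 (40.9), NQO1 (28.8), GCLM (20.3), SLC7A11 (5.38), GCLC (4.30), AKR1C1 (1.89), AKR1C2 (0.860) and AKR1C3 (0.300). With the control guide AKR1C1 stood higher in the order, at 11.7 CPM per kb, between GCLM at 14.1 and SLC7A11 at 5.47. There the top was again TXNRD1 (46.9), SRXN1 (31.8) and NQO1 (17.1), and the end was GCLC (3.05), AKR1C2 (2.88) and AKR1C3 (0.465). Counting intervals overlapped only for TXNRD1 and SRXN1 in the SMC1A library and for GCLC and AKR1C2 in the control library. Merged exon length counts every annotated exon, 8765 bases for AKR1C1 against a coding sequence of 969, and so understates a gene whose rare transcripts are long.

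RefSeq promoters were found for 8 of the 10 genes, 10 windows in all, with HMOX1 and SLC7A11 missing from the table. The antioxidant response element core TGACNNNGC, searched on both strands in the 250 bases before the start, was present in 3 of these windows and in 10.9% of 35116 promoter windows. The MAF recognition core TGANTCA, which overlaps the other where that starts with TGACTCA, was in 0 of the 10 windows and in 6.57% of all. Matches were in GCLM and TXNRD1 and in none of the AKR1C promoters printed above, and each is shown as 60 bases read along the gene's own strand with the match in capitals. The windows are chr1:93909431-93909490 (- strand) for GCLM, and chr12:104215655-104215714 and chr12:104286905-104286964 (+ strand) for the 2 starts of TXNRD1.
GCLM: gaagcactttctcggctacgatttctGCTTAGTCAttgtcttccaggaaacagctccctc
TXNRD1, upstream start: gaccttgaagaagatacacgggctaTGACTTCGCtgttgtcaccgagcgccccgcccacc
TXNRD1, downstream start: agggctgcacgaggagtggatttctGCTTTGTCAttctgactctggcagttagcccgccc
These matches are letters only, and elements farther from the start lie outside the windows.

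Genes that control NRF2 lay mostly near their control level. None of the 17 passed 2-fold upward, beside 5.11% of all genes that passed the filter, and 1, BACH2, passed it downward, beside 2.32%. The median of their log2 ratios was -0.10 (0.03 by library totals), beside -0.05 over all genes that passed the filter. NFE2L2, which encodes NRF2, had 76.7 CPM with the SMC1A guide and 74.0 CPM with the control guide (log2 ratio 0.05, interval -0.06 to 0.16). Its adaptor gene KEAP1 was at -0.14, CUL3 at -0.07 and the ligase subunit gene RBX1 at 0.12. Scaling by library totals, which moves the median of all genes by 0.13, gave 0.06 for CUL3 and 0.03 for DPP3 in place of -0.10, and -0.01 for KEAP1. Among the DNA-binding partners and rivals, BACH1 had 98.1 CPM with the SMC1A guide and 74.0 CPM with the control guide (0.41), and the small MAF genes MAFG, MAFF and MAFK were at -0.14, -0.36 and -0.37. BACH2, a lymphoid relative of BACH1, had 9.92 CPM with the SMC1A guide and 20.4 CPM with the control guide, at -1.04, or -0.91 by totals and then within 2-fold.

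SQSTM1, whose product draws KEAP1 away from NRF2 and is itself an NRF2 target, topped these genes. Its level was 159.2 CPM with the SMC1A guide and 88.4 CPM with the control guide, at a log2 ratio of 0.85 (0.76 to 0.94). The related factor genes were NFE2L1 at 0.33, the erythroid factor gene NFE2 at -0.73 with 100.2 CPM and 166.6 CPM in the SMC1A and control libraries, and NFE2L3 at -0.69. GSK3B and BTRC, which mark NRF2 for degradation apart from KEAP1, were at 0.34 and 0.31, and SYVN1 was at -0.22.

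Other genes of the aldo-keto reductase family that passed the filter lay within 2-fold. Of 16 listed, 5 passed the filter, and 2 of these, the AKR1C pair itself, were at least 2-fold lower. AKR7A2, which reduces succinic semialdehyde and other aldehydes, had 52.4 CPM with the SMC1A guide and 45.3 CPM with the control guide (0.21), and the potassium channel subunit gene KCNAB2 was at 0.07. Of 16 steroid, retinoid and prostaglandin enzyme genes that passed the filter, 14 lay within 2-fold, 2 were lower and 0 higher, with a median of -0.24. Over all genes that passed the filter, 2.32% were lower and 5.11% higher by that measure. HPGD, which inactivates prostaglandins, had 6 counts with the SMC1A guide and 103 with the control guide, so it passed the filter through the control library, and DHRS3, a retinaldehyde reductase gene, had 8.96 CPM and 36.3 CPM in the same order. The highest 2 of that list were HSD17B12 at 0.42 and HSD17B7 at 0.24.

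Wider redox lists spread on either side of the control level, as the plot of gene lists shows. Each count below by TMM stands beside 5.11% of all genes past 2-fold upward and 2.32% downward. Counts by library totals stand beside 766 of the 11321 genes upward and 195 downward. In glutathione synthesis and use, 3 of 23 genes passed 2-fold upward (4 by library totals) and 0 downward, around a median of 0.09. GSTA4, a transferase that clears lipid aldehydes, had 7.43 CPM with the SMC1A guide and 2.11 CPM with the control guide (log2 ratio 1.79, interval 1.28 to 2.38). GSTM2, another transferase gene, was at 1.65 and GGT1 at 1.22. GSTA4, at 131 and 37 counts in the SMC1A and control libraries, and GSTM2, at 106 and 33, passed the filter through the SMC1A library. SLC3A2, the partner chain of SLC7A11, was at -0.61 and GGCT, which acts in glutathione breakdown, at -0.51. Sequences within the GSTM and GSTA families were not compared here, so how far reads can be divided between their members is uncertain. In the thioredoxin and peroxiredoxin system, 1 of 18 genes passed 2-fold upward and 0 downward. It was SESN3, with 20.8 CPM with the SMC1A guide and 5.98 CPM with the control guide (1.78), followed by SESN1 at 0.48, while the glutaredoxin genes GLRX2 and GLRX5 were at -0.76 and -0.53. The median of that list was -0.03, or 0.10 by library totals.

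Genes that supply NADPH, the cofactor of the AKR1C enzymes, NQO1 and TXNRD1, had a median of -0.30 over 13, with 1 past 2-fold in each direction. ME1, a malic enzyme gene and known NRF2 target, had 64.2 CPM with the SMC1A guide and 30.2 CPM with the control guide (1.09, interval 0.94 to 1.24). MTHFD2, a mitochondrial folate enzyme gene, had 108.0 CPM and 231.6 CPM in the same order, at -1.10, or -0.97 by totals and then within 2-fold. MTHFD1 was at -0.58 and PGLS at 0.08. In the list of quinone, heme and conjugation enzymes and export, 1 of 16 genes passed 2-fold upward (2 by library totals) and 0 downward, around a median of 0.21. OSGIN1, an oxidative stress gene that NRF2 drives, had 300 counts with the SMC1A guide and 65 with the control guide (2.18, interval 1.81 to 2.61). EPHX1, an epoxide hydrolase gene, was at 0.95, or 1.08 by totals, and the exporter genes ABCC4 and ABCC1 were at -0.77 and -0.55.

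Of 13 superoxide and peroxide enzyme genes, 2 passed 2-fold upward and 0 downward, around a median of 0.16. SOD3, an extracellular superoxide dismutase gene, was at 1.27 and the methionine sulfoxide reductase gene MSRB1 at 1.18. With 96 and 39 counts in the SMC1A and control libraries, SOD3 passed the filter through the SMC1A library. The mitochondrial SOD2 was at -0.53 and catalase, CAT, at -0.14 (-0.01 by totals). SLC7A11 is also driven by ATF4, the factor of the amino acid response, so that list was set beside it. Of 16 genes of the ATF4 list that passed the filter, ATF4 itself at -0.80 among them, 6 were at least 2-fold lower and 0 higher. The shares of all genes were 2.32% and 5.11%, and the median of the list was -0.74. By library totals 4 were lower, beside 195 of all 11321 genes. PSAT1 and CBS, enzymes of serine and cysteine synthesis, were by that scaling at -0.97 and -0.93 and within 2-fold. DDIT4 was at -2.06 and the amino acid transporter gene SLC7A5 at -1.65, whereas SLC7A11, at -0.02, and ATF3, at 0.72, had the highest ratios of the list.

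**Figure D3:**
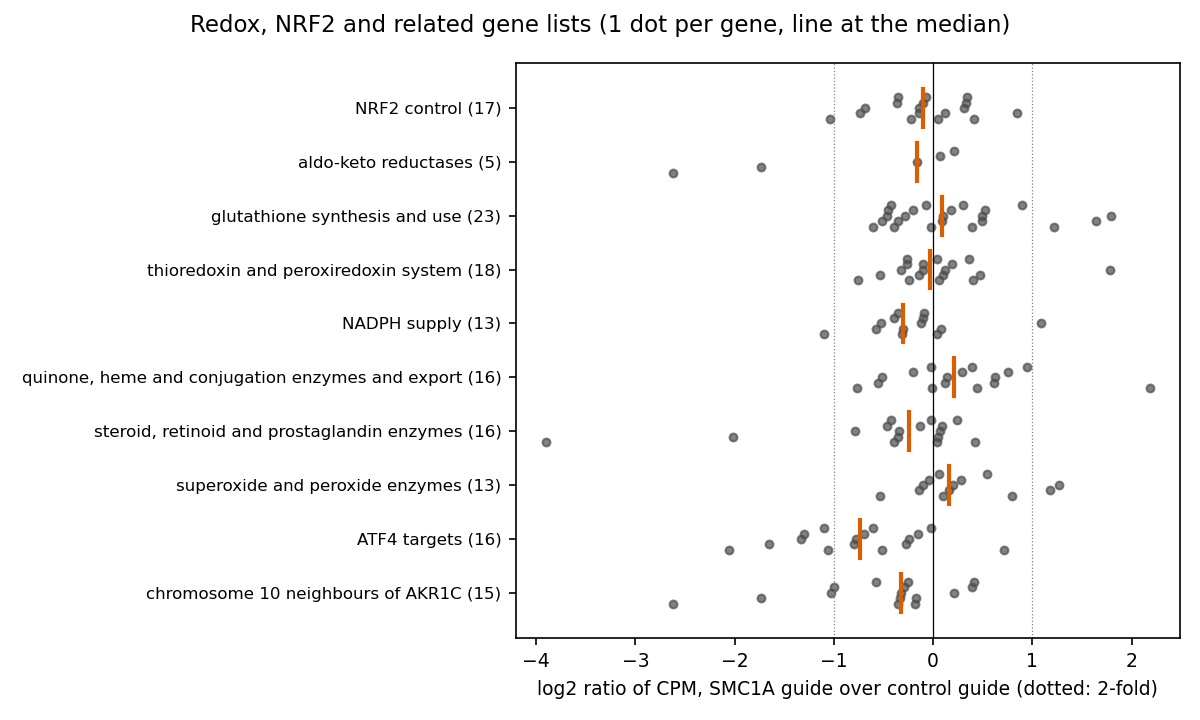
Log2 ratio of CPM, SMC1A guide over control guide, for each gene with at least 100 counts in 10 lists (number of genes in parentheses), with a line at each list's median. AKR1C1 and AKR1C2 are the lowest points of the aldo-keto reductase list. The medians run from -0.74 for the ATF4 targets list, which includes ATF4, to 0.21 for quinone, heme and conjugation enzymes and export.

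Along chromosome 10, the genes around the AKR1C cluster were compared because cohesin acts on chromosome folding. Of 22 genes listed from PFKP to PFKFB3, 15 passed the filter, and 3 were at least 2-fold lower and 0 higher. The shares over all genes that passed the filter were 2.32% and 5.11%. The 3 were PFKP and, selected on these same counts, AKR1C1 and AKR1C2. The median of the 15 was -0.32, beside -0.05 over all genes that passed the filter. PFKP, which starts at -1897 kb from the AKR1C1 start, was the lower gene outside the cluster, at -1.03, or -0.90 by totals and then within 2-fold. NET1, 449.3 kb beyond the AKR1C1 start, was 1.99-fold lower (1.86 to 2.14), just inside the limit. On the near side, AKR1E2 had 40 counts with the SMC1A guide and 56 with the control guide, below the filter. TUBAL3, 441.6 kb away, was at 0.41 (-0.02 to 0.85) and KLF6, a transcription factor gene on the other side, at 0.40. AKR1C1 and AKR1C2 stood below every other listed gene of this stretch that passed the filter. Both were selected on these counts, so nothing is read from that rank.

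**Figure D4:**
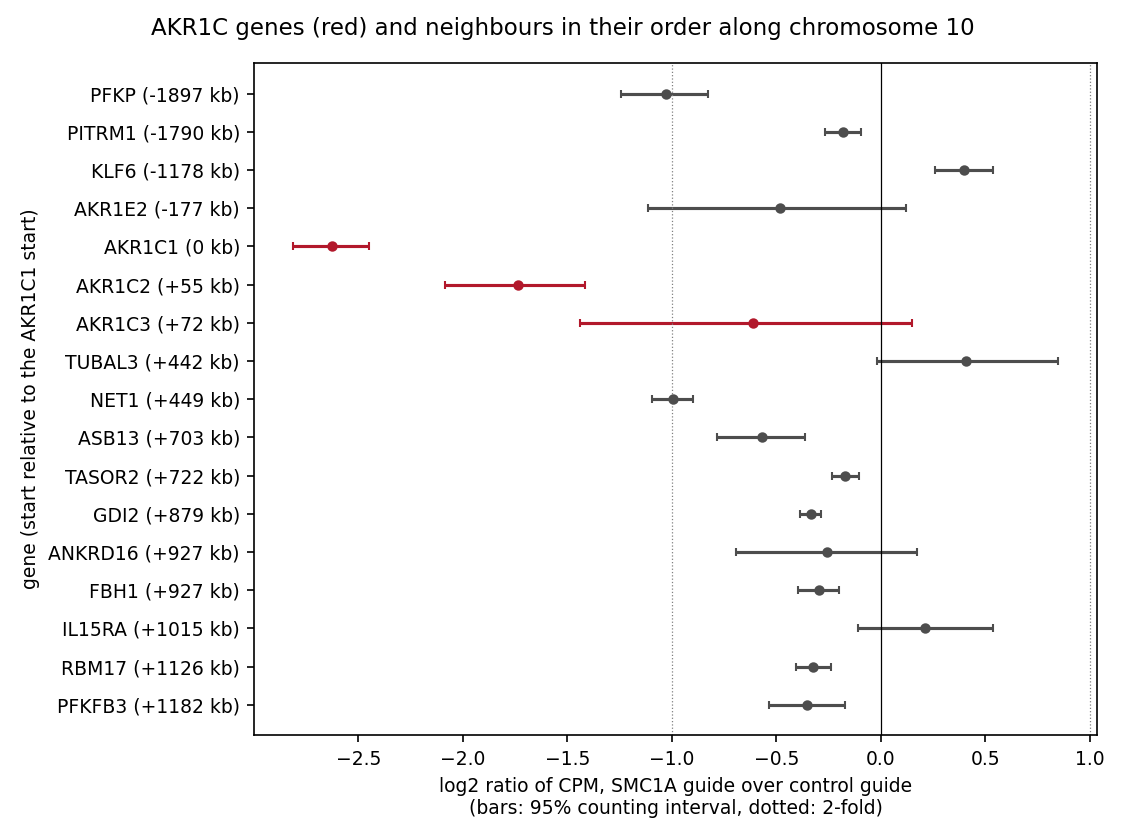
Log2 ratio of CPM, SMC1A guide over control guide, for AKR1C genes (red) and neighbours with at least 20 counts, in order along chromosome 10 with the distance from the AKR1C1 start in kb and 95% counting intervals. AKR1C1 and AKR1C2 lie at -2.63 and -1.74, and the neighbours outside the cluster between -1.03 and 0.41.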

How the data were processed

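Deposited by the authors was 1 table of estimated counts per gene, named as merged gene counts of Salmon, not scaled between libraries and rounded to whole numbers. The tools listed, per the submitters' processing notes, are STAR (2.7.10a), DESeq2 (1.42.1) and Salmon (1.10.1), and the build is hg38 (GRCh38). What each tool did, which annotation was used and whether counting used strand is not given in the sources used here. Symbols came from a gene-name table, and spans and lengths from GENCODE release 29, which covered 97.9% of genes past the filter of 100 counts. The table's 2 fluorescent reporter rows (0.0999% of counts with the SMC1A guide, 0.0628% with the control guide) stayed in the totals.

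Libraries were scaled with TMM (edgeR 4.0.16, R 4.3.3). Log2 ratios used edgeR's formula with a prior count of 1, checked against edgeR and on simulated data, and folds are ratios of CPM. Intervals are exact (Clopper-Pearson for ratios and shares, Poisson for levels per kb) at 95%. They cover counting error only, since PCR copies cannot be told from molecules. Python 3.11.15, scipy 1.17.1 and pandas 2.3.3 were used. Named were the 10 members, SMC1A, the AKR1C rows, all NRF2 control genes, the 2 highest and 2 lowest of each list with at least 100 counts, and the 3 protein-coding genes with at least 500 counts nearest to the AKR1C sum. Markers, AKR1E2, PFKP, NET1, GPX1, CBR1, GGT1, RPL18AP3, PSAT1, CBS and genes below the filter were named after their values were seen. Members and lists were chosen with earlier results of these data known. Settings also tried were scaling by DESeq2 (1.42.0), by totals and by upper quartile, prior counts, filters, sums and subtraction of the expression trend.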

Additional observations from a re-analysis of the deposited data

How the results depend on the processing

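The AKR1C sum kept its sign and stayed past 2-fold under the other scalings, prior counts and trend removal, from -2.39 to -2.26. The mean of the 3 separate ratios, in which the thinly covered AKR1C3 weighs as much as AKR1C1, was -1.66. The sum of the other targets, 0.17, was 0.30 by library totals, 0.45 with the expression trend removed, 0.43 as a median, 0.10 without NQO1, 0.11 without GCLM and 0.44 without TXNRD1. The log2 quotient of the AKR1C proportion, -2.56, was -2.83 without TXNRD1. Among single genes, 2 turned sign. SLC7A11 was at 0.11 by totals and 0.071 without the trend, and TXNRD1 at 0.14 without the trend. Of 63 single-gene alternatives, 6 more kept the sign but left the gene's counting interval. By library totals these were NQO1 at 0.89, GCLM at 0.65, SRXN1 at 0.49 and TXNRD1 at -0.02. Without the trend they were GCLM at 0.64 and SRXN1 at 0.48. The causes were not tested. Genes at least 2-fold higher and lower numbered 579 and 263, against 1361 and 518 at a filter of 20 counts, 199 and 140 at 500, and 3800 and 2714 unfiltered. Requiring the whole interval to pass left 343 and 143. At the filter of 100 counts the higher genes were 68.8% of all past 2-fold, or 79.7% when scaled by library totals (766 and 195). No paired analysis was possible because each guide has 1 library. Depth limits AKR1C3 most, at 61 counts.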

Other observations

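The 3 protein-coding genes with at least 500 counts whose ratio lay nearest to that of the AKR1C sum were HBA2, an alpha-globin gene, GPAT3, a glycerolipid enzyme gene, and EHD2, a membrane trafficking gene. HBA2 had 37.8 CPM with the SMC1A guide and 185.4 CPM with the control guide (log2 ratio -2.29). GPAT3 had 5.22 CPM with the SMC1A guide and 23.3 CPM with the control guide (-2.15), and EHD2 had 6.41 CPM and 40.5 CPM in the same order (-2.65). Likeness is the gap in ratio between 2 libraries, and 4 of 8113 such genes, SMC1A itself among them, lay lower than the AKR1C sum. HBA2 has a near-identical copy, so its division of reads is uncertain.

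Some genes of the redox lists were below the filter, and those given here were chosen after their values were seen. ABCG2, an exporter gene that can respond to NRF2, had 20 counts with the SMC1A guide and 0 with the control guide. Against the 3 counts per library that a 0 allows, this was 6.63-fold higher, and its counting interval starts at 4.91-fold. CHAC1, which breaks down glutathione, had 10 counts with the SMC1A guide and 43 with the control guide (log2 ratio -2.01, interval -3.27 to -1.10). ALDH3A2, a fatty aldehyde dehydrogenase gene, had 17 and 4 counts in the same order. ALB, a liver marker, had 2 and 8.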
